A study of Mus musculus with 4 samples.

Results

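The replication-dependent histone genes were taken as the genes whose name on the array starts with Hist1h, Hist2h, Hist3h or Hist4h. They had 51 probes for 47 genes, among 39429 non-control probes with 31829 names on a 2-colour whole mouse genome array. Through their transcripts 50 of the 51 probes matched a current RefSeq symbol (GRCm38.p6), such as H1f2 for Hist1h1c and H4c14 for Hist2h4, and the names of the array are used here. The family counts were 6 probes for the linker histone H1, 15 for H2A, 11 for H2B, 8 for H3 and 11 for H4. The 15p cells were CD49f+ CD34+ skin epithelial cells of adult C3H/HeN mice, sorted after the last of 15 serial cultures, each of 10 days with Wnt-3a on collagen type I. The 0p cells were CD49f+ CD34+ cells sorted from primary skin epithelial cells of the same strain. Wnt-3a is given in the labels for either RNA, and they do not say how long, if at all, the 0p cells were cultured. Each of 2 biological replicates was hybridised on 2 arrays with the dyes exchanged, so 4 arrays held a 15p RNA against a 0p RNA. The comparison asks whether expression in these cells differed after the serial cultures.

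CD49f is integrin alpha 6, which anchors basal keratinocytes to the basement membrane, and CD34 marks cells of the mouse hair follicle bulge. Replication-dependent histones are made mainly in S phase, when new DNA has to be packed. H2A, H2B, H3 and H4 form the nucleosome core and H1 binds the linker DNA between nucleosomes. Their short genes lie in clusters and lack introns, many copies encode the same protein, and the mRNAs end in a conserved stem-loop in place of a poly(A) tail. Stem-loop binding protein, Slbp, binds that end. Some members, Hist1h1c among them, also give polyadenylated mRNA outside S phase. The labels name the labelling kit without saying how it primes, so they do not tell which kinds of histone mRNA were labelled.

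By the positions in the files (mouse build mm9), 37 probes of 34 genes lay on chromosome 13 between 21814057 and 24026527, 10 probes on chromosome 3 between 96024171 and 96074115, 3 on chromosome 11 and 1, for Hist4h4, on chromosome 6. Probes were 60 bases long and many lay in stretches that the copies share. The H2A probes below show how near the copies are: they cover the end of the coding sequence and its stop codon, and capitals mark bases that differ from the Hist1h2ak probe, which is printed without capitals as the base of the comparison. They lie at chr13:23626113-23626172 (Hist1h2af, plus strand), chr13:22127035-22127094 (Hist1h2ah, minus), chr13:21845304-21845363 (Hist1h2ak, minus), chr13:21878695-21878754 (Hist1h2an, minus) and chr3:96049837-96049896 (Hist2h2aa2, plus).
Hist1h2af: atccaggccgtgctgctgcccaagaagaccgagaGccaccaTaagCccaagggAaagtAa
Hist1h2ah: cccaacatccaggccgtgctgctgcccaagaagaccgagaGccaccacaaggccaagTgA
Hist1h2ak: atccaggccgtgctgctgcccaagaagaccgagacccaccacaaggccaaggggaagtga
Hist1h2an: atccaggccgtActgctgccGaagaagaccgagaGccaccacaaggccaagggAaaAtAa
Hist2h2aa2: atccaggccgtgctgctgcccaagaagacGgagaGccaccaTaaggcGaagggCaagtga
Of the bases that overlap the Hist1h2ak probe, 55 of 60 were identical in Hist1h2af and in Hist2h2aa2, 54 of 60 in Hist1h2an and 51 of 54 in Hist1h2ah. Such a probe cannot be read as the level of one copy.

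A second group of probes covers the stem-loop that sets these mRNAs apart. Both strands of every probe were searched for the stem GGCTCT, any 4 bases of loop, and AGAGCC, and 5 of 39429 probes (0.0127%) held it. All 5 were histone probes. Short stretches are shown with the stem-loop in capitals, from the probes at chr3:96049949-96050008 (Hist2h2aa1, plus strand), chr3:96074056-96074115 (Hist2h2bb, plus), chr13:23853756-23853815 (Hist1h3a, minus), chr13:23627719-23627778 (Hist1h3g, plus) and chr13:21874784-21874843 (Hist1h3i, minus).
Hist2h2aa1: taaaaaGGCTCTTTTCAGAGCCacccact
Hist2h2bb: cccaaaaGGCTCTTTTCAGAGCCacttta
Hist1h3a: aaccaaaGGCTCTTTTCAGAGCCaca
Hist1h3g: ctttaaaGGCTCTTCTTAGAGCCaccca
Hist1h3i: aacaaaaGGCTCTTTTCAGAGCCccctc
A match is a description of the probe, and a probe without it says nothing of its gene's mRNA end.

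The scanner's spots reached well above background for 55.02% to 64.8% of probes in the 15p channel and 56.5% to 68.1% in the 0p channel, and no spot was saturated. Of the 51 histone probes, 45 were well above background on all 4 arrays in at least one RNA and were tested. In both RNAs 44 passed; Hist1h1t, a testis linker histone, did so on 3 of 4 arrays in 15p cells and on all 4 in 0p cells. The 6 not tested were Hist1h1d, Hist1h2ac, Hist1h2bp, Hist2h2be, Hist3h2ba and Hist3h2bb, each above background on no array or on 1 array in either RNA. Krt5, Krt14, Krt15 and Trp63, markers of basal keratinocytes, and Itga6, which encodes CD49f, were above background on all 4 arrays in both RNAs. Cd34, the other gene of the sort, had 2 probes, and the brighter was well above background on 0 of 4 arrays in 15p cells and on 1 of 4 in 0p cells. One array, of replicate 2 with 15p in Cy5, stood apart: the SD of its log2 ratios over tested probes was 0.29, against 0.13 to 0.14 on the other arrays. Each replicate was on a slide of its own, so replicate and slide cannot be told apart.

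None of the 45 tested histone probes was called different between 15p and 0p cells (limma, Benjamini-Hochberg adjusted p over 21660 probes, lowest 0.787). Over all tested probes 0% were called in either direction, and 5.67% had an unadjusted p under 0.05, as did 1 of the 45 histone probes. The mean log2 ratios of 15p over 0p cells ran from -0.12 to 0.13, with 21 above 0 and 24 below. Their median was -0.036, against 0.00077 over all tested probes. In replicate 1 the histone median was -0.022 and in replicate 2 it was -0.0019. All 45 of the 95% intervals lay within a 1.5-fold difference in either direction, with bounds between -0.28 and 0.28. Limma drew the spread behind them from a probe's 2 replicates (residual degrees of freedom 1) and mostly from all tested probes (prior 7.14). The bounds are thus not those of each probe's own 2 replicates. Some tested probes were also dim. The mean spot signals of Hist1h1t ran from 71 to 227 and those of Hist1h2bg from 75 to 143. Negative control spots had medians of 48 to 75. An offset of 50, added to every signal in processing, draws the ratios of such probes towards 0. For them a narrow interval does not show equal RNA. The labels do not tie the replicates to separate animals, so the spread may be technical. In RNA of sorted cells in bulk, fewer cells of a type and less RNA per cell cannot be told apart.

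Ratios below are log2 of 15p over 0p cells, and for each dye-swapped pair the array with 15p in Cy5 comes first. By array the medians of the 45 histone probes were -0.0012 and -0.025 in replicate 1 and 0.12 and -0.042 in replicate 2. The array that stood apart gave the highest median. Its ratio was the largest of the 4 in absolute size for 22 of the 45 histone probes, while 57% of all tested probes had their largest ratio there. Without that array the median of the histone probes was -0.033 and 0 were called, where 0.526% of all probes passed. Leaving out the other array with 15p in Cy5, that of replicate 1, gave 6 calls among the 45, where 17.5% of all probes passed. These were Hist1h1a at 0.28, Hist1h1e at 0.25 and Hist2h3c1, higher in 15p cells, and Hist1h2ab at -0.18, the coding-end probe of Hist1h4k at -0.20 and that of Hist2h4 at -0.20, lower in 15p cells. In that fit the array that stood apart alone gives the ratio in its dye orientation, so its scatter does not enter the error. Leaving out either array with 15p in Cy3 gave 0 calls.

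**Figure D1:**
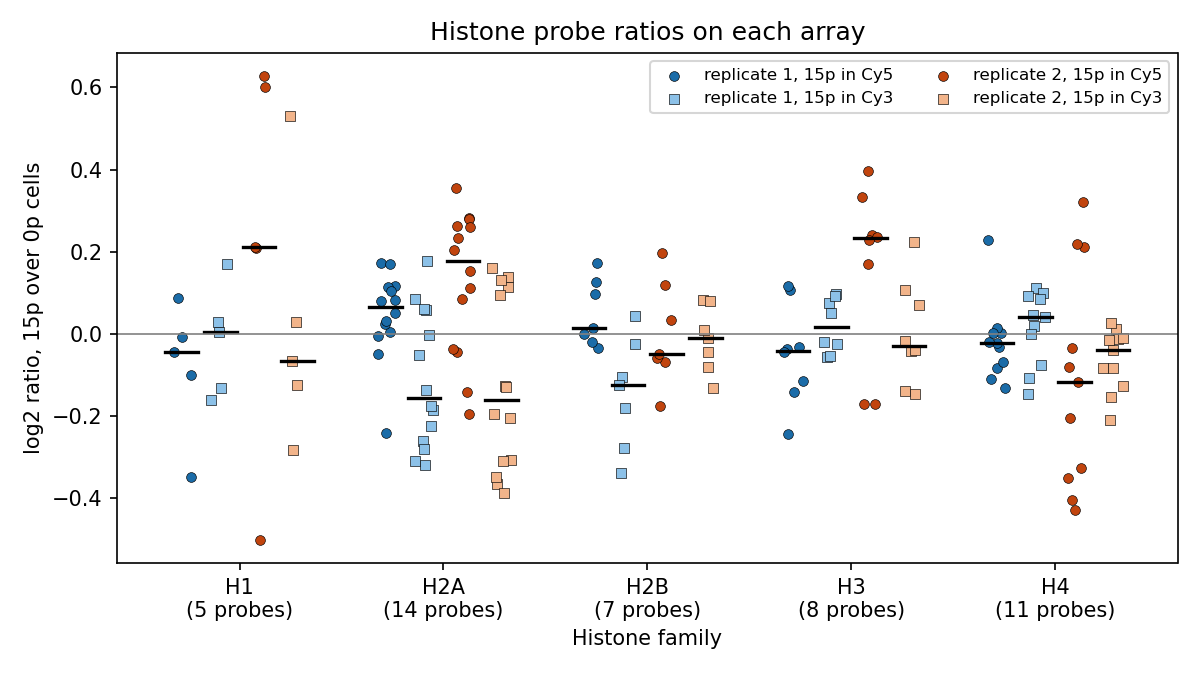
Log2 ratio of 15p over 0p cells (y axis) for the 45 tested histone probes by family (x axis), with 1 point for each probe on each of the 4 arrays and a bar at each array's median. Each family has points on both sides of 0. Over the 45 probes together the range is widest on the array that stood apart (replicate 2, 15p in Cy5), at -0.50 to 0.63. On that array H1 and H3 probes lie mostly above 0 and H4 probes mostly below.

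Among the linker histones, 5 of 6 probes were tested and 0 were called, with a median of 0.056. Hist1h1a, a linker histone subtype, had log2 ratios of -0.0071 and 0.0053 on the replicate 1 arrays and 0.63 and -0.13 on the replicate 2 arrays. Only the array that stood apart was clearly above 0. The mean was 0.13 ± 0.18 (SD, n = 2; limma adjusted p = 0.787). Hist1h1e, a somatic linker histone, had -0.099 and -0.13 on the replicate 1 arrays and 0.60 and -0.066 on the replicate 2 arrays. It was below 0 on 3 arrays and above on the array that stood apart, with a mean of 0.076 ± 0.27 (SD, n = 2). Hist1h1c, the linker histone that also gives polyadenylated mRNA, had normalised log2 intensities of 10.34, 10.35, 10.64 and 10.51 in 15p cells, against 10.38, 10.32, 10.43 and 10.48 in 0p cells, in the array order above. The groups overlapped. Its ratios were -0.043 and 0.029 on the replicate 1 arrays and 0.21 and 0.028 on the replicate 2 arrays, and the mean was 0.056 ± 0.089 (SD, n = 2; limma adjusted p = 0.846).

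Hist1h1b, a linker histone of dividing cells that was chosen here after its values were seen, had log2 ratios of -0.35 and 0.17 on the replicate 1 arrays and -0.50 and 0.53 on the replicate 2 arrays. Its sign followed the dye in both replicates, and the mean was -0.038 ± 0.073 (SD, n = 2). Hist1h1t averaged -0.036 ± 0.00091 (SD, n = 2) and its ratios also changed sign with the dye. Without the array that stood apart the H1 median was -0.034, on the other side of 0.

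The H2A family had 14 of 15 probes tested, 0 called and a median of -0.055, with 6 above 0 and 8 below. Hist2h2aa1, a copy of an H2A gene on chromosome 3, had log2 ratios of 0.082 and -0.052 on the replicate 1 arrays and 0.26 and 0.13 on the replicate 2 arrays. Of its arrays 3 were above 0, and the mean was 0.11 ± 0.13 (SD, n = 2; limma adjusted p = 0.787). Hist1h2ab, an H2A gene of the chromosome 13 cluster, had 0.17 and -0.19 on the replicate 1 arrays and -0.20 and -0.13 on the replicate 2 arrays. All but the first of these arrays were below 0, for a mean of -0.085 ± 0.11 (SD, n = 2). Hist1h2ag, whose probe overlaps the H2A tail probes printed above, had 0.052 and -0.26 on the replicate 1 arrays and 0.26 and -0.35 on the replicate 2 arrays, with a mean of -0.073 ± 0.044 (SD, n = 2). It was above 0 with 15p in Cy5 and below 0 with 15p in Cy3 in both replicates.

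Hist1h2ah, one of the tail probes, had log2 ratios of 0.17 and -0.31 on the replicate 1 arrays and 0.28 and -0.39 on the replicate 2 arrays. Its arrays split by dye, and the mean was -0.061 ± 0.012 (SD, n = 2). The other tail probes averaged -0.072 for Hist1h2af, -0.061 for Hist1h2ak, -0.067 for Hist1h2an and -0.050 for Hist2h2aa2. The Hist2h2ac probe, which the files place over the same bases of chromosome 3 as the Hist2h2aa2 probe, averaged -0.060 ± 0.031 (SD, n = 2). Away from these, Hist1h2aa, a testis H2A gene, averaged 0.073 ± 0.058, Hist3h2a on chromosome 11 0.056 ± 0.0078, Hist2h2ab 0.059 ± 0.045 and Hist1h2ae 0.027 ± 0.040 (SD, n = 2 each). With each array centred on its median in place of loess, the H2A median was 0.034.

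In the H2B family 7 of 11 probes were tested, 0 were called, and the median was -0.038. Hist2h2bb, whose probe holds the stem-loop, had log2 ratios of 0.097 and -0.28 on the replicate 1 arrays and -0.049 and -0.080 on the replicate 2 arrays. It was below 0 on 3 of 4 arrays and averaged -0.078 ± 0.018 (SD, n = 2; limma adjusted p = 0.808). Hist1h2bm, an H2B gene whose probe the files assign to 4 transcripts, had -0.0012 and -0.18 on the replicate 1 arrays and 0.12 and -0.13 on the replicate 2 arrays and averaged -0.048 ± 0.059 (SD, n = 2). Hist1h2bg, an H2B gene of the same cluster, had -0.019 and -0.34 on the replicate 1 arrays and 0.20 and 0.0094 on the replicate 2 arrays. The replicates lay on either side of 0, and the mean was -0.038 ± 0.20 (SD, n = 2). Hist1h2ba, the testis H2B gene, averaged -0.016 ± 0.040, Hist1h2bb -0.038 ± 0.012, Hist1h2bc 0.0037 ± 0.0034 and Hist1h2be 0.028 ± 0.11 (SD, n = 2 each).

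All 8 H3 probes were tested, 0 were called, and 7 of 8 had means above 0, with a median of 0.040. Hist1h3a, Hist1h3g and Hist1h3i encode the H3.1 protein, and their probes hold the stem-loop. Hist1h3i had log2 ratios of 0.12 and -0.053 on the replicate 1 arrays and 0.40 and -0.15 on the replicate 2 arrays, with a mean of 0.078 ± 0.066 (SD, n = 2; limma adjusted p = 0.809). Hist1h3a had -0.033 and -0.055 on the replicate 1 arrays and 0.24 and 0.11 on the replicate 2 arrays, for a mean of 0.065 ± 0.15 (SD, n = 2). Hist1h3g had -0.11 and 0.075 on the replicate 1 arrays and 0.23 and 0.069 on the replicate 2 arrays, for a mean of 0.064 ± 0.12 (SD, n = 2). For each of these 3 genes the highest ratio was on the array that stood apart. The others encode H3.2: Hist1h3c averaged 0.045, Hist2h3c1 0.036, Hist1h3f 0.018, Hist2h3c2 0.015 and Hist1h3d, the one below 0, -0.058. Without the array that stood apart the H3 median was -0.012. Hist2h3c1 moved most among them by replicate, at -0.076 in replicate 1 and 0.15 in replicate 2.

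The 11 H4 probes, all tested, stand for 8 genes that encode one protein. The median was -0.079, with 8 probes below 0 and 3 above, and 0 were called. The probes with the lowest means of all 45 were for Hist2h4 and Hist1h4k. They overlap by 25 bases at the H4 coding end, at chr3:96066951-96067010 (Hist2h4, minus strand) and chr13:21842063-21842122 (Hist1h4k, minus). Capitals in the Hist2h4 probe mark the 22 of these 25 bases that are identical to the start of the Hist1h4k probe.
Hist1h4k: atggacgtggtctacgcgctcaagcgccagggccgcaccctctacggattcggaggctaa
Hist2h4: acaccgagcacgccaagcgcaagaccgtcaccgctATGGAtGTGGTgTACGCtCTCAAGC
The Hist2h4 probe had log2 ratios of -0.082 and 0.085 on the replicate 1 arrays and -0.40 and -0.083 on the replicate 2 arrays, for a mean of -0.12 ± 0.17 (SD, n = 2; limma adjusted p = 0.787). The Hist1h4k probe had -0.11 and 0.10 on the replicate 1 arrays and -0.43 and -0.038 on the replicate 2 arrays, for a mean of -0.12 ± 0.16 (SD, n = 2; limma adjusted p = 0.787). On each array these differed from each other by at most 0.045. Both were near 0 in replicate 1 and below 0 in replicate 2, where the array that stood apart was lowest. A second Hist2h4 probe, upstream of it on the same strand, had -0.069 and -0.11 on the replicate 1 arrays and 0.32 and -0.010 on the replicate 2 arrays and averaged 0.033 ± 0.17 (SD, n = 2). On the array that stood apart the 2 probes of Hist2h4 thus had opposite signs, but the second probe was dim. Its mean spot signals there were 113 in 15p and 112 in 0p cells, against 45024 and 33424 for the first. Negative control spots had medians of 49 and 75 there, so the opposite signs are not read as a difference between the probes.

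Hist1h4c and the downstream probe of Hist1h4i were the 2 of 45 histone probes with 1 sign on all 4 arrays, where 6.99% of all tested probes had 1 sign. Hist1h4c had log2 ratios of -0.033 and -0.077 on the replicate 1 arrays and -0.080 and -0.13 on the replicate 2 arrays, all below 0, for a mean of -0.079 ± 0.035 (SD, n = 2; limma adjusted p = 0.807). The Hist1h4i probe had 0.23 and 0.019 on the replicate 1 arrays and 0.22 and 0.026 on the replicate 2 arrays, all above 0. Its normalised log2 intensities were 9.01, 8.77, 9.20 and 8.89 in 15p cells, against 8.78, 8.75, 8.98 and 8.87 in 0p cells. The groups overlapped across arrays, but the 2 RNAs of an array are paired and 15p was higher on each. The mean of 0.12 ± 0.00075 (SD, n = 2) had an unadjusted p of 0.0481 (limma, adjusted p = 0.787). It was higher with 15p in Cy5 than with 15p in Cy3 in both replicates. With the 4 arrays fitted singly beside a dye term, 0 of the 45 histone probes had an unadjusted limma p under 0.05.

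The downstream Hist1h4i probe lies at chr13:22132679-22132738 on the minus strand. Bases 9 to 38 of it are shown because 5 probes of other genes share at least 16 bases with it, and capitals mark bases that most of these share. The stretch resembles the B1 repeat, a short interspersed repeat of the mouse genome.
Hist1h4i: ccgagtgttgggATTAAAGGCGTGCGCCAC
These 5 probes were all tested and had means between 0.025 and 0.15 with a median of 0.058. Of them 1 had an unadjusted limma p under 0.05, where 5.67% of all tested probes had such a p. The other Hist1h4i probe, at chr13:22133139-22133198, overlaps the Hist1h4j probe and averaged 0.061 ± 0.073 (SD, n = 2). Among the other H4 genes, Hist1h4h had log2 ratios of 0.0012 and -0.15 on the replicate 1 arrays and -0.035 and -0.21 on the replicate 2 arrays, for a mean of -0.097 ± 0.035 (SD, n = 2; limma adjusted p = 0.787). It was below 0 or near it on each array. Hist1h4d averaged -0.089 ± 0.11, Hist4h4 on chromosome 6 -0.079 ± 0.15 and Hist1h4j -0.064 ± 0.10 (SD, n = 2 each). Without the array that stood apart the H4 median was -0.039. In replicate 1 alone it was 0.0015, and in replicate 2 -0.14.

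**Figure D2:**
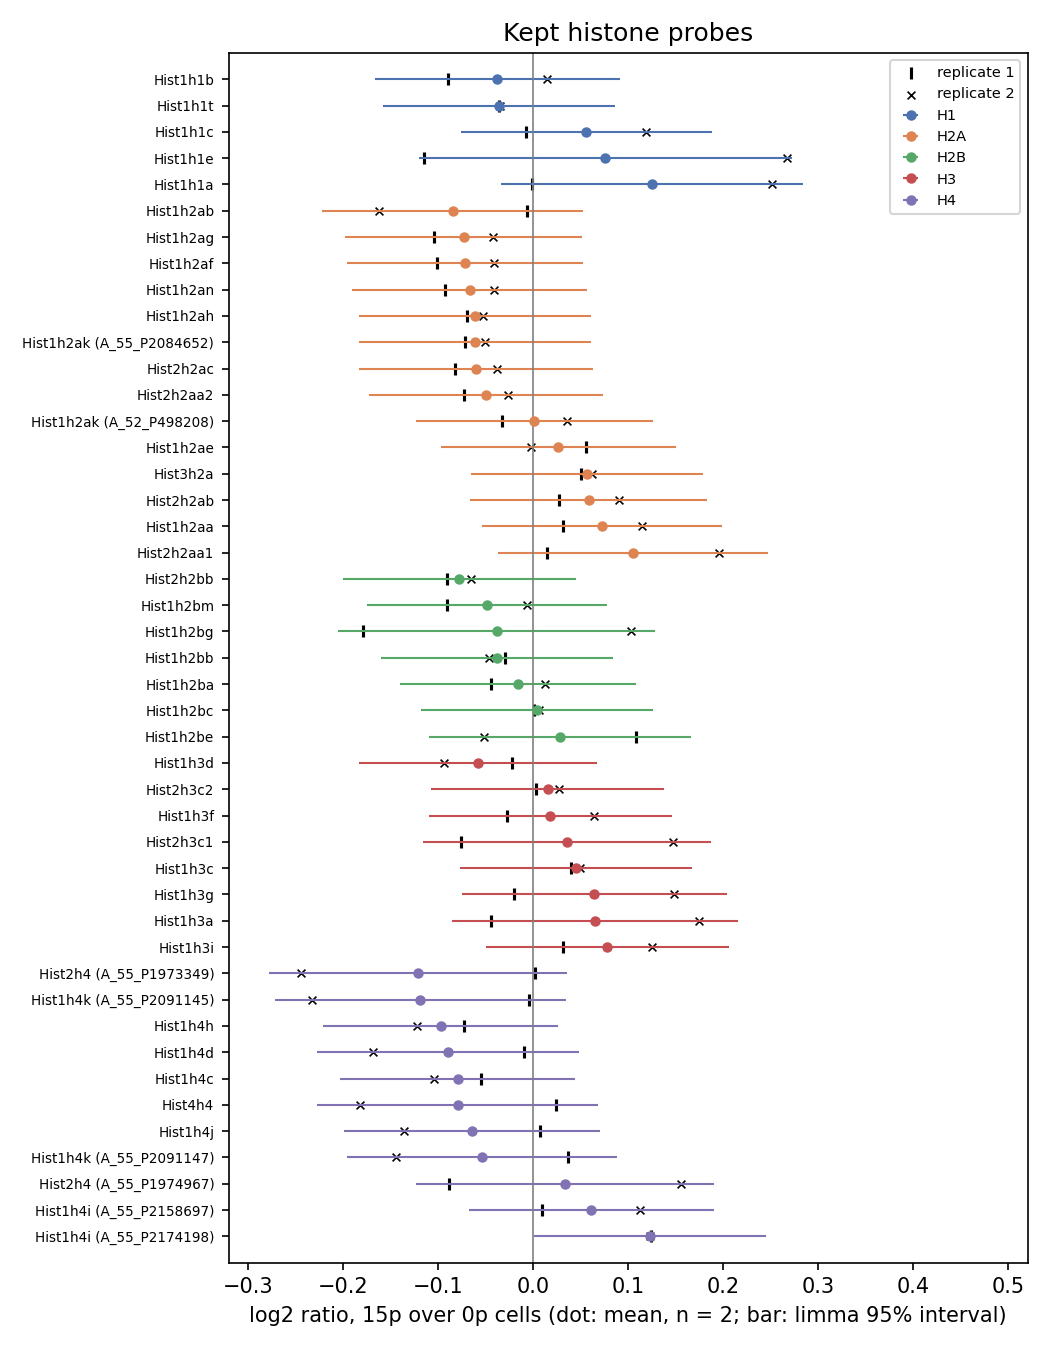
Mean log2 ratio of 15p over 0p cells (x axis) for each of the 45 tested histone probes (rows, ordered by family and mean), with limma's 95% interval as a bar, replicate 1 as a tick and replicate 2 as a cross. All intervals lie between -0.28 and 0.28, and the Hist1h4i probe A_55_P2174198 is the one whose interval does not reach 0.

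Probes that overlap in sequence were read together, since they are not independent. By an overlap of at least 25 bases with at least 80% identity, 17 of the 51 probes fell into 4 groups. The largest held 6 H2A probes (Hist1h2af, Hist1h2ag, Hist1h2ah, Hist1h2ak, Hist1h2an and Hist2h2aa2). Their means spanned only -0.073 to -0.050, and on single arrays their ratios spanned 0.17 to 0.22. A group of 5 H4 probes had means from -0.089 to 0.061. The overlap was read without gaps, so the groups do not hold every shared stretch. Outside them, Hist2h2ac shared 16 bases with 6 other histone probes, Hist2h2bb with 3, and Hist1h3c and Hist1h3f with 1 each. The 13 tested probes that the files assign to several transcripts had a median of -0.061, with 12 below 0, and the 32 with 1 transcript had a median of 0.022, with 12 below 0. The split follows the listed transcripts. Hist1h2ag and Hist2h2ac have 1 listed transcript, though each shared 16 bases with 6 other histone probes. Probes that share sequence are not independent, and these counts carry no test. The 5 stem-loop probes had a median of 0.065, with 4 above 0 and 0 called, and the other 40 tested probes had a median of -0.038. The 4 above 0 (Hist2h2aa1, Hist1h3a, Hist1h3g and Hist1h3i) form an overlap group of their own. Their ratios were 0.23 to 0.40 on the array that stood apart and between -0.15 and 0.13 on the others. Their mean spot signals were 166 to 1140, against 2255 to 6245 for Hist2h2bb, the stem-loop probe below 0. The group of 6 H2A probes, all below 0, had 67708 to 368241. Neither this split nor the one by transcripts was matched for brightness, so nothing is read from it about mRNA ends or copies. For Hist1h2ak the tail probe averaged -0.061 and a probe upstream of it 0.0014. For Hist1h4k the coding-end probe averaged -0.12 and the other -0.054.

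In 13 of 45 histone probes (28.9%) the sign on both arrays with 15p in Cy5 was opposite to that on both dye swaps, near the 31.1% of all tested probes that did so. These were 2 of 5 H1 probes, 7 of 14 H2A, 1 of 7 H2B, 3 of 8 H3 and 0 of 11 H4. Of 2151 other probes in the brightest 10% of tested probes 49.0% did so, and nothing is read from the order of the families. The 10 with a positive ratio when 15p was in Cy5 included 6 H2A probes. The dye difference of a pair, which is the ratio with 15p in Cy5 minus the ratio with 15p in Cy3, divided by 2, was tested against 0 after the data had been seen. It differed from 0 for 2 of 45 histone probes, Hist1h1b and Hist1h2ah, where 3.43% of all tested probes passed (limma, Benjamini-Hochberg adjusted). For Hist1h1b it was -0.39 (limma adjusted p = 0.000974) and for Hist1h2ah 0.29 (limma adjusted p = 0.0367). The median absolute dye difference of the histone probes was 0.098 and that of their 15p over 0p ratio 0.061, against 0.074 and 0.046 over all tested probes. Averaging the arrays of a pair removes a dye difference only where it is equal on both arrays.

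**Figure D3:**
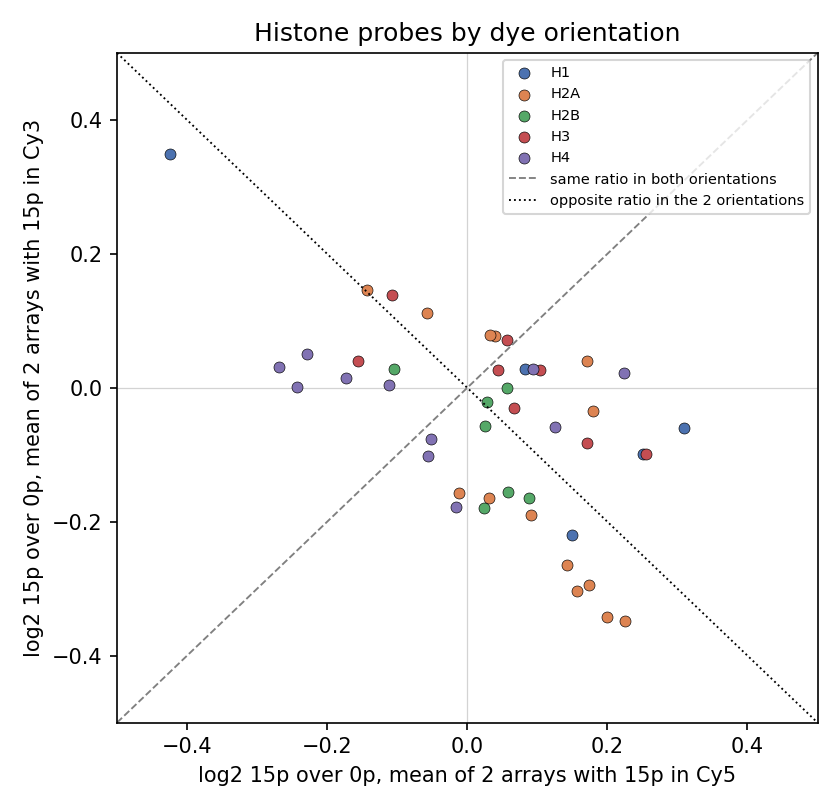
Each point is a tested histone probe, with the mean log2 ratio of 15p over 0p cells on the 2 arrays with 15p in Cy5 (x axis) against that on the 2 arrays with 15p in Cy3 (y axis), coloured by family. The signs are opposite for 71.1% of these probes, against 66% of all tested probes, and Hist1h1b is the point farthest to the upper left, at -0.42 and 0.35.

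Genes that supply and process histone mRNA were read next to the histones. Of 17 genes on this list 16 were tested and 0 were called, with 2 at an unadjusted limma p under 0.05 (Upf1 and Cpsf4) and a median log2 ratio of -0.013. Over all tested probes 5.67% had such a p, the share to set beside this count and those of the lists below. Slbp, the stem-loop binding protein, had log2 ratios of -0.26 and 0.23 on the replicate 1 arrays and -0.64 and -0.00092 on the replicate 2 arrays. Both arrays with 15p in Cy5 were below 0 and the dye swaps were above or near 0, and the mean was -0.17 ± 0.22 (SD, n = 2; limma adjusted p = 0.787). Npat, the transcriptional coactivator of these genes, was well above background on 2 of 4 arrays in 15p cells and on 1 of 4 in 0p cells, and was not tested. Srrt, which links the cap-binding complex to RNA processing, averaged -0.19 ± 0.41, and Upf1, a helicase that acts in the decay of histone mRNA when DNA synthesis stops, averaged 0.18 ± 0.16 (SD, n = 2 each).

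Of 19 histone chaperone and assembly genes, all were tested, 0 were called and 1 had an unadjusted limma p under 0.05 (Asf1a), with a median of -0.046. Asf1a, a chaperone of H3 and H4, averaged -0.13 ± 0.048 (SD, n = 2; limma adjusted p = 0.787). Daxx, a chaperone of the replacement histone H3.3, averaged 0.11 ± 0.054, and Hat1, which acetylates new H4, averaged -0.11 ± 0.14 (SD, n = 2 each).

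The replacement and variant histones, which are made outside S phase as well, had 13 of 17 genes tested, 0 called, 0 at an unadjusted limma p under 0.05 and a median of 0.014. H2afz, which encodes H2A.Z, had log2 ratios of 0.15 and -0.23 on the replicate 1 arrays and -0.19 and -0.15 on the replicate 2 arrays, with a mean of -0.10 ± 0.091 (SD, n = 2; limma adjusted p = 0.787). It was above 0 on 1 array of 4. H3f3b, a gene of H3.3, averaged -0.11 ± 0.21, and H2afv, which encodes a second H2A.Z, averaged 0.068 ± 0.029 (SD, n = 2 each). The H2A tail probes printed above each share 16 bases with 1 or 2 probes outside the histone set. H2afj had 0.19 and -0.36 on the replicate 1 arrays and 0.28 and -0.36 on the replicate 2 arrays, near those of Hist1h2ah. Whether its probe shares their sequence was not tested.

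Of 41 DNA replication genes 40 were tested, 0 were called and 1 had an unadjusted limma p under 0.05 (Cdc45), with a median of -0.0053. Pcna, the sliding clamp of the replication fork, had log2 ratios of -0.026 and -0.031 on the replicate 1 arrays and -0.68 and 0.23 on the replicate 2 arrays, for a mean of -0.13 ± 0.14 (SD, n = 2; limma adjusted p = 0.787). Its lowest ratio was on the array that stood apart. Cdc45, part of the replicative helicase, averaged -0.20 ± 0.28, and Rfc2, a subunit of the clamp loader, averaged 0.12 ± 0.15 (SD, n = 2 each). The 20 mitosis and proliferation genes were all tested and 0 were called, with a median of -0.0031. At an unadjusted limma p under 0.05 were 3 (Mki67, Cenpe and Top2a), where 5.67% of all tested probes had such a p. Mki67, the proliferation antigen Ki-67, had log2 ratios of -0.25 and 0.0079 on the replicate 1 arrays and -0.81 and -0.0077 on the replicate 2 arrays, for a mean of -0.27 ± 0.20 (SD, n = 2; limma adjusted p = 0.787). The array that stood apart was again lowest. Cenpe, a kinetochore motor, averaged -0.24 ± 0.15 and Top2a, the topoisomerase of dividing cells, -0.21 ± 0.29 (SD, n = 2 each).

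Markers of the sorted cells and of other skin cells were not called either. Of the 6 sorted-cell markers 5 were tested: Krt14 averaged 0.19 ± 0.12, Krt15 0.17 ± 0.033, Krt5 0.00042 ± 0.036, Itga6 0.025 ± 0.041 and Trp63 -0.026 ± 0.018 (SD, n = 2 each). Of the 7 dermal fibroblast markers 2 were tested, Col3a1 and Twist2, both above background on all 4 arrays in both RNAs. Col1a1 was above background on 3 of 4 arrays in both RNAs, and Pdgfra, Lum and Dcn on no array. Of 6 endothelial markers 4 were tested, Pecam1, Kdr, Flt1 and Eng, all above background on 4 arrays in both RNAs. Cdh5 and Tek were above background on no array. Of 7 immune markers 4 were tested (Cd3e, Fcer1g, H2-Eb1 and Itgam) and of 6 melanocyte markers 3 (Mlana, Tyr and Mitf). Of 6 markers of differentiated keratinocytes 4 were tested (Krt10, Ivl, Lor and Tgm1). Some tested markers were dim. Col3a1, Pecam1, Eng, Fcer1g, Tyr and Tgm1 had mean spot signals between 75 and 166, where negative control spots had medians of 48 to 75. For these the flag alone does not show clear expression. Each other tested marker of these cells reached a higher signal on some array, such as Kdr at 1747 to 4336. The tested markers of these other cells averaged between -0.13, for Flt1 of endothelium, and 0.20, for Tgm1. Tgm1, the transglutaminase of the cornified envelope, averaged 0.20 ± 0.13 (SD, n = 2; limma adjusted p = 0.787). At an unadjusted limma p under 0.05 were 2 of the 5 sorted-cell markers (Krt14 and Krt15), 1 of the 4 of differentiated keratinocytes (Tgm1) and 0 of the others. Of the 130 tested genes of all the lists, 31 (23.8%) were called with the replicate 1 array with 15p in Cy5 left out, where 17.5% of all probes passed. Without the array that stood apart 1 (0.769%) was called, where 0.526% of all probes passed. The part of other cells in the histone values was not tested.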

How the data were processed

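RNA of 15p and 0p cells was compared on 4 Agilent 2-colour arrays, a dye-swapped pair for each of 2 biological replicates. Per the labels' protocols, 200 ng of total RNA purified with Trizol was labelled and 825 ng of each cRNA was hybridised. The deposited scanner files hold mean spot and local background intensity in each dye, extracted with Agilent Feature Extraction 10.7.3.1, per the file headers. Their processed intensity was background-subtracted and dye-normalised by the software, and their log10 ratio is of Cy5 over Cy3, per the file headers. Flags of 0 or 1 for spots above background, saturated or irregular are the software's, per the file headers. The deposited value table held the same log10 ratios, which differed from the arrays' by at most 0.0045. Its column medians were 0, and this comparison settled its scale and its direction.

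In R 4.3.3 with limma 3.58.1 and the data.table package (version 1.17.8), mean intensities were corrected by normexp (offset 50) and normalised within arrays by loess, with control spots at weight 0. Irregular spots were left out (154 to 286 of 43020 an array, no histone spot among them). Spots of a probe were averaged. Probes tested (21660 of 39429) had the software's flag for signal well above background in the 15p channel of every array or in the 0p channel of every array. Ratios were turned to 15p over 0p by the labels' dyes, averaged within each dye-swapped pair and tested against 0, two-sided, with lmFit and eBayes (residual degrees of freedom 1, prior 7.14) and Benjamini-Hochberg adjustment at 0.05. Where a list gene had several probes, the brightest stood for it. The script was tested on simulated data. The number of arrays limits precision.

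The histone probes, gene lists and tests were chosen with earlier results of these data known. Genes named are, per histone family, the 3 tested probes with the largest absolute mean ratio, those with an unadjusted p under 0.05 or one sign on all arrays, the 3 such genes of each list, and a fixed group of genes. Positions are those of the files in mm9. Alternatives in background correction, normalisation, filter, pairing and arrays used are given in the closing section. The arrays of a numbered pair hold the same 2 RNAs with the dyes exchanged, and the correlation over probes of their deviations from the means of their dye orientations was -0.24. Such deviations partly cancel in the mean of a pair, which narrows the SDs and intervals given here. An unadjusted limma p under 0.05 was reached by 1228 probes from the pair means (1 histone probe). With 4 arrays and a dye term it was reached by 443 (0 histone probes).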

Additional observations from a re-analysis of the deposited data

Results flagged for a closer look

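The sign of 13 histone probes differed between dye orientations on the same RNAs: 10 were positive wherever 15p was in Cy5 and negative wherever it was in Cy3, and 3 were the other way round. These 13 were 28.9% of the tested histone probes, near the 31.1% of all tested probes that split this way. The 2 orientations were compared by these signs, and the size of the difference was tested only as the dye difference given above, which passed for Hist1h1b and Hist1h2ah.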

How the results depend on the processing

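No probe was called with the processing described above, so no call could be lost. With the replicate block as a fixed term beside a dye term on single arrays, 75 of 21660 probes were called (10 higher and 65 lower in 15p cells), 0 of them histone probes. The planned random block could not be estimated from 4 arrays, so it was not run. Crossing the pairs, chosen after seeing the data like the fixed block, leaves with 4 arrays the same residual as that block and so gave the same 75 calls. With 3 arrays and a dye term, calls over all probes ran from 0 to 3801, those among histone probes from 0 to 6, and those among list genes from 0 to 31. The highest counts came from the fit that dropped the first replicate's array with 15p in Cy5, in which the array that stood apart is the only one in its orientation and 17.5% of all probes passed. There Hist1h1a, Hist1h1e and Hist2h3c1 were called higher, and Hist1h2ab and the probes A_55_P2091145 (Hist1h4k) and A_55_P1973349 (Hist2h4) lower. With the array that stood apart (replicate 2, 15p in Cy5) left out, 114 probes were called (0.526%), with 0 histone probes and 1 list gene. The histone median of -0.036 was -0.014 from Agilent's processed signals and from the value table, -0.015 without background subtraction and 0.026 with median centring, where the median of all probes was 0.022. Leaving out replicates or arrays gave medians from -0.033 to 0.0026. Signs of the 16 histone probes chosen by the naming rule changed for 6 without replicate 2 and for 6 with that array alone left out, and for 0 or 1 under each other setting. Without 1 replicate there is no test. Single arrays without a block, separate channels, other background corrections, normalisations and filters, and the brightest probe of each gene called 0 probes, with 77 to 2592 at an unadjusted p under 0.05 (limma). The fixed block and the 3-array fits that made calls had infinite prior degrees of freedom, so limma used the same variance for every probe. The 3-array fits with 0 calls had 12.9. With 3 arrays the residual is the difference between the 2 arrays of the same orientation. The scatter of the array alone in its orientation does not enter it. The number of arrays limits all of these settings.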
